A study of Mus musculus with 6 samples.

Results

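Serpinb6a, Serpinb6b, Serpinb9, Serpina3f and Serpina3g are the 5 serpin genes of cytotoxic lymphocytes described here, of 62 genes whose symbol starts with Serpin and of 32285 genes in the expression matrices. They were chosen by name, with earlier results of these data known, and each has 1 row in both matrices. Intracranial tumors of CT2A, a mouse glioma line, were grown in wild-type C57BL/6J mice aged 6 to 8 weeks, and their CD3+CD4+ and CD3+CD8+ T cells were sorted. The day-13 group came from 16 mice, with 4 mice pooled for each day-13 replicate, and the day-19 group came from 4 mice. The 6 samples are 3 libraries of each day, for gene expression, antibody tags and T cell receptors, made from 1 capture per day with 10x Genomics 5' chemistry. All groups share the tumor line, the genotype and the strain, and none of the samples analysed here is labelled as treated or tumor-free.

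A cell here is a barcode listed in a T cell receptor contig table with at least 5000 gene UMIs, at most 10% mitochondrial UMIs and at most 3 UMIs of the macrophage genes C1qa, Lyz2 and Csf1r together. UMIs are unique molecular identifiers, each standing for 1 captured RNA molecule. The rule kept 3775 of 8359 contig barcodes at day 13 and 2159 of 4295 at day 19, and every one of them had a UMI of a Cd3 gene. CD8 T cells, in which Cd8a or Cd8b1 but not Cd4 was detected, numbered 2646 and 1436, with medians of 7199 and 9097 gene UMIs. CD4 T cells, with the reverse pattern, numbered 499 and 377, with medians of 6844 and 7868. The other 630 and 346 cells carried UMIs of both or of neither and entered no comparison between classes. Each day has 4 contig tables, and the cells of a table are called a set. Of the expanded clonotypes in a set, 3.33% to 7.5% were also seen in a different set at day 13 and 20.9% to 50% at day 19, so the sets, above all those of day 19, were not treated as independent samples. With 1 capture per day no test was possible. Day, capture and pooling cannot be told apart. Values are CPM, the counts per 1000000 gene UMIs summed over the cells of a group, and differences are log2 ratios of CPM. Intervals are exact 95% intervals for Poisson counts and cover counting error only. A ratio past 1.5-fold (0.585 on the log2 scale) is called higher or lower, and each count of called members stands beside the share of all genes, with at least 100 UMIs in both groups together, that passed the same fold.

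Serpins are protease inhibitors that carry an exposed loop. The protease cuts this loop and is trapped in a covalent complex. Cytotoxic lymphocytes store granzymes, which are serine proteases, in granules beside perforin, and protease that leaks into their own cytoplasm can kill the cell that made it. Serpinb9, also called SPI6, is the intracellular inhibitor of granzyme B. Serpinb6a is an intracellular serpin that inhibits cathepsin G, and Serpinb6b is its mouse paralog in the clade B cluster. Serpina3g, also called Spi2A, inhibits cysteine cathepsins that escape from lysosomes and is known for its part in the survival of memory CD8 T cells. Serpina3f is a neighbouring paralog in the Serpina3 cluster.

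The clade B members lie on chromosome 13 and the clade A members on chromosome 12 (RefSeq annotation, GRCm38.p6). Serpinb6a (ENSMUSG00000060147 in the matrices) spans chr13:33917918-34002794, Serpinb6b (ENSMUSG00000042842) chr13:32956811-32979067 and Serpinb9 (ENSMUSG00000045827) chr13:32997061-33017955. Serpina3f (ENSMUSG00000066363) spans chr12:104214544-104221129 and Serpina3g (ENSMUSG00000041481) chr12:104236147-104241939. No source read here says how reads of near-identical copies within each cluster were divided, so the split of UMIs between Serpina3f and Serpina3g is uncertain, and so is that among the clade B paralogs. The 250 bases before a RefSeq start of 4 members are printed because the Serpina3 pair and the Serpinb6b and Serpinb9 pair were each detected together in single cells more often than the product of their shares. Capitals mark matches to 4 motifs searched on both strands: the GAS motif TTCNNNGAA, the ISRE core (GAAA, 2 free bases, GAAA), the NF-kB motif (GGGA, 4 free bases, CC) and the AP-1 motif TGANTCA. The Serpina3f sequence (chr12:104214294-104214543, plus strand), before the first of its 2 RefSeq starts, has a GAS match from -121 to -113 and an NF-kB match from -172 to -163. Before its second start (chr12:104214383-104214632, not printed) there is a GAS match from -210 to -202 and no NF-kB match. The Serpina3g sequence (chr12:104235897-104236146, plus strand) has a GAS match from -33 to -25. The Serpinb9 sequence (chr13:33004291-33004540, plus strand) has an ISRE core match from -46 to -37, and the Serpinb6b sequence (chr13:32965011-32965260, plus strand) has no match to these letters.
Serpina3f: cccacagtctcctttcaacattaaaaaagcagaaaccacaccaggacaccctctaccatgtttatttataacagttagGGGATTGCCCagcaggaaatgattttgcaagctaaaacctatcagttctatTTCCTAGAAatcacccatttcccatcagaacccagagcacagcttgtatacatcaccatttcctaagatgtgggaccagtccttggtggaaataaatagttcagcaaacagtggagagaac
Serpina3g: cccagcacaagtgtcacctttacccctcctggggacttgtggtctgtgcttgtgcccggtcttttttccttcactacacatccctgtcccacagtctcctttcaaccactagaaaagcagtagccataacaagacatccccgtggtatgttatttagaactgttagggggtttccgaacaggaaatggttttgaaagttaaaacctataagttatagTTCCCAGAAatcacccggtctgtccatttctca
Serpinb9: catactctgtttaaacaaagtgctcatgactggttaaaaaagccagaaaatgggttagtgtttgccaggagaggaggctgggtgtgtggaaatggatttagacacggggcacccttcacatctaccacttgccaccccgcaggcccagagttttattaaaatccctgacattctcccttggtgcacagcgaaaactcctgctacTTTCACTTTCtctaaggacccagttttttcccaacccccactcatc
Serpinb6b: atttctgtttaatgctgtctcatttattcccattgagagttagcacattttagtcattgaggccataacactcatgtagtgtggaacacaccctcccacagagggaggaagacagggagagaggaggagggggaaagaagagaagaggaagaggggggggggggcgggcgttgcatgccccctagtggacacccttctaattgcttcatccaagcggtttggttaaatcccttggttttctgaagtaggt
The best local alignment of the 2 Serpina3 sequences had 119 identical bases in 147 columns (81.0%), and their GAS matches, TTCCTAGAA in Serpina3f and TTCCCAGAA in Serpina3g, fell in the same columns with 1 mismatch. Of 32851 RefSeq promoters cut to the same 250 bases, 7.02% held a GAS match, 2.98% an ISRE core match, 17.6% an NF-kB match and 6.75% an AP-1 match. Of the 2 RefSeq starts of Serpinb6a, the one at the far end of the gene has a GAS match from -77 to -69 that overlaps an ISRE core match from -84 to -75, and the other has none. A match is a description of letters and not a measured binding site.

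RNA of other cells was present in the T cell barcodes. Fscn1, Ccl22 and Cacnb3, which mark mature dendritic cells, summed to 170 CPM at day 13 and 57 CPM at day 19 in CD8 T cells and to 448 and 42.5 CPM in CD4 T cells, with none of the 3 genes at 0. They summed to 7050 and 7390 CPM in barcodes outside the contig tables that were chosen by these genes. Among marker groups of at least 20 outside barcodes, these also held the highest Serpinb6b and Serpinb9. A UMI of any of the 3 was found in 5.93% and 3.2% of CD8 and in 14.6% and 6.9% of CD4 T cells. The ratios of members between groups of T cells given below were computed again without these marked cells, both values are given where the 1.5-fold call or the sign differed, and the part of this RNA in the remaining values was not tested. The summed level of 6 macrophage markers was 56.8 and 73.7 CPM in CD8 T cells and 97.5 and 165 CPM in CD4 T cells.

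In CD8 T cells the members differed between the days in opposite directions: Serpinb6b and Serpinb9 were lower at day 19, Serpina3f and Serpina3g were higher, and Serpinb6a differed little. Serpinb6b had 145.6, 135.7, 140.7 and 147.5 CPM in sets 1 to 4 at day 13, and 125.3, 69, 95.12 and 72 CPM at day 19. All day-19 sets were below all day-13 sets, and the log2 ratio of the summed levels, 80.65 against 140.7 CPM, was -0.803 (interval -0.896 to -0.71). Serpinb9, the granzyme B inhibitor, had 84.54, 85.34, 89.26 and 98.43 CPM at day 13 and 75.29, 47.06, 60.39 and 77.77 CPM at day 19. Its sets did not overlap either, and its log2 ratio was -0.595 (interval -0.707 to -0.484), which was within 1.5-fold, at -0.338, without set 2 of day 19 and, at -0.559, without set 4 of day 13. Set 2 holds 750 of the 1436 CD8 T cells of day 19. Without the cells marked by mature dendritic genes the ratio was -0.699 for Serpinb6b and, within 1.5-fold, -0.499 for Serpinb9.

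For the Serpina3 pair the order of the days was reversed, in CD8 T cells and also in the free RNA of barcodes with 10 to 100 gene UMIs (Serpina3f 14.23 CPM at day 13 and 31.97 CPM at day 19, Serpina3g 101.2 and 158.5 CPM). Serpina3f had 13.27, 14.85, 13.48 and 11.03 CPM in the day-13 sets and 33.73, 21.18, 26.6 and 29.16 CPM in the day-19 sets, a log2 ratio of 0.902 (interval 0.688 to 1.12). Serpina3g had 111.1, 135.7, 110.8 and 104.1 CPM at day 13 and 190.9, 183.2, 138.3 and 190.2 CPM at day 19. Both genes were above all day-13 sets in every day-19 set, with set 3 of day 19 the lowest for Serpina3g. The log2 ratio of Serpina3g was 0.573 (interval 0.498 to 0.649), a 1.49-fold difference just under the threshold, and it passed the threshold at 0.698 without set 2 of day 13 and at 0.649 without set 3 of day 19. Serpinb6a had 39.43, 47.83, 37.71 and 58.41 CPM at day 13 and 50.6, 49.09, 67.9 and 41.32 CPM at day 19. These sets overlapped, and the log2 ratio was 0.174 (interval 0.0424 to 0.306). Free RNA had the same order of days as CD8 T cells for the clade B members too. There Serpinb6b had 84.74 CPM at day 13 and 75.7 CPM at day 19, Serpinb9 69.54 and 53.13 CPM, and Serpinb6a 32.67 and 45.61 CPM. The part of free RNA in the differences of the 5 members was not tested.

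**Figure D1:**
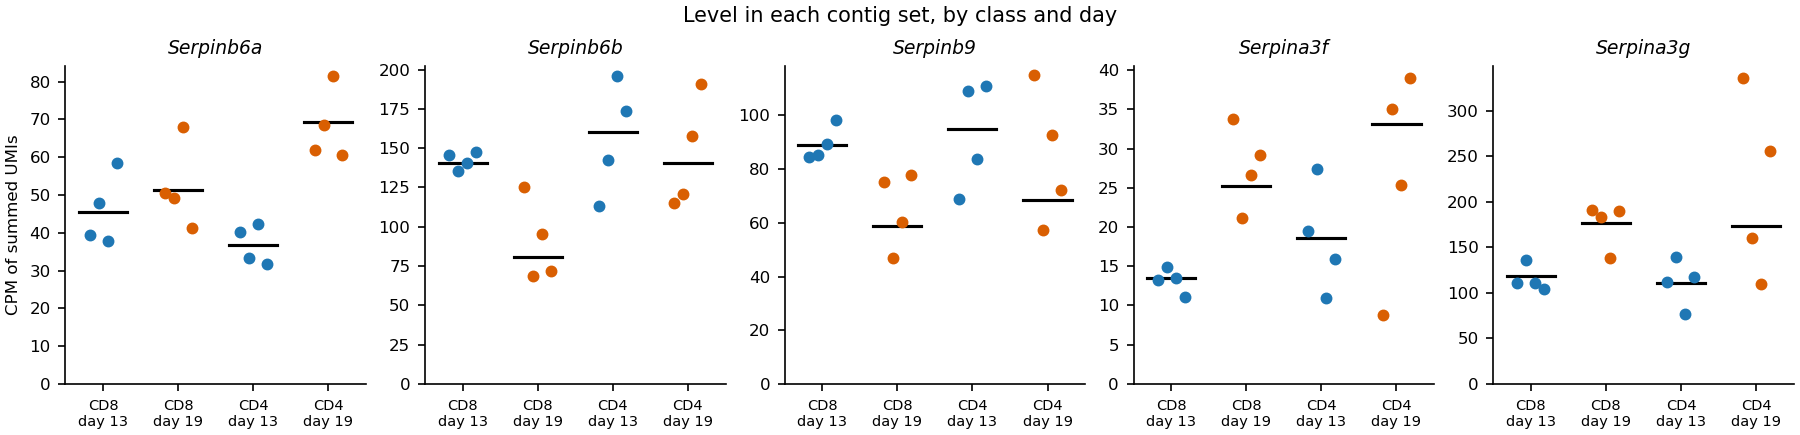
Level of each serpin (CPM of summed UMIs, vertical axis from 0) in the 4 contig sets (points, sets 1 to 4 from left to right) of CD8 and CD4 T cells at day 13 (blue) and day 19 (orange), with the level over all sets as a black line. In CD8 T cells the day-19 points of Serpinb6b and Serpinb9 lie below all day-13 points and those of Serpina3f and Serpina3g above them.

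Past 1.5-fold, 1 of 5 members was higher at day 19 in CD8 T cells, beside 5.27% of 10039 genes, and 2 were lower, beside 7.34%. For 2 members every day-19 set was above every day-13 set, as for 8.17% of all genes, and for 2 every day-19 set was below, as for 14.3%. The median log2 ratio of all genes was -0.0395. Of the other 57 serpins, 40 had no UMI in CD8 and CD4 T cells of either day, and 3 had enough UMIs in CD8 T cells. These were Serpinb1a, an inhibitor of neutrophil proteases (2.121 against 3.723 CPM, log2 ratio -0.812), Serpine2 (5.988 against 10.09 CPM, -0.753) and Serpini1 (5.177 against 8.108 CPM, -0.647), all lower at day 19. The 5 members held 19856 of the 21082 serpin UMIs in these cells, or 94.2%.

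Among 21 granule proteases, cathepsins and their partners, 20 had enough UMIs, of which 3 were higher and 4 lower at day 19, beside the 5.27% and 7.34% of all genes, and 13 passed in neither direction. The granzymes Gzmf (1125 against 45.42 CPM) and Gzmc (546.1 against 37.4 CPM) and the pore-forming protein Prf1 (121.6 against 62.01 CPM) were higher, whereas Gzmk was lower (119.3 against 257.9 CPM). Of 12 interferon-gamma response genes, none was higher and 11 were lower, with a median log2 ratio of -0.829. Among them the GTPase gene Gbp2 had 100.9 against 242.6 CPM and the transcription factor gene Irf1 268.6 against 418.4 CPM. Of 8 other inhibitors of cell death, none was higher and 1, Birc3 (27.45 against 42.53 CPM), was lower, and their median log2 ratio was -0.321.

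Over all CD4 T cells the largest difference between the days was in Serpinb6a. Its sets had 40.33, 33.2, 42.21 and 31.73 CPM at day 13 and 61.87, 68.42, 81.56 and 60.64 CPM at day 19, all above the day-13 sets, with a log2 ratio of 0.909 (interval 0.623 to 1.2). Serpina3f (33.18 against 18.55 CPM, log2 ratio 0.838) and Serpina3g (173.8 against 110.9 CPM, 0.649) were also past 1.5-fold over all cells. Their sets overlapped: those of Serpina3g ran from 77.14 to 139.3 CPM at day 13 and from 109.7 to 335.9 CPM at day 19, and set 1 of day 19 holds only 12 CD4 T cells. Serpina3g was within 1.5-fold without set 3 of day 13 (0.466) or set 4 of day 19 (0.487), and Serpina3f without cycling cells (0.466) or with no macrophage UMI allowed (0.557). Serpinb6b (140.4 against 160.3 CPM, log2 ratio -0.191) and Serpinb9 (68.47 against 94.78 CPM, -0.469) were lower by less than 1.5-fold, although Serpinb9 passed it, at -0.593, without set 3 of day 19. Without the cells marked by mature dendritic genes the ratios of Serpinb6b and Serpinb9 were 0.118 and -0.206. Those of Serpinb6a, Serpina3f and Serpina3g were then 0.785, 1.09 and 0.801, so Serpinb6a was no longer the largest. In all, 3 members were called higher, beside 5.83% of 7276 genes, and 0 lower, beside 7.13%. For 1 member every day-19 set was above every day-13 set, as for 5.63% of all genes, and for 0 every set was below, as for 5.8%.

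CD8 and CD4 T cells of the same capture had similar levels of most members. At day 13 no member passed 1.5-fold, beside 8.15% of 9655 genes higher and 13.1% lower in CD8 T cells. The ratios ran from -0.46 for Serpina3f, which passed the threshold at -0.701 without set 3 of day 13, to 0.304 for Serpinb6a. Without the cells marked by mature dendritic genes the sign turned for Serpinb6b (-0.188 to 0.104) and Serpinb9 (-0.0896 to 0.192). At day 19 Serpinb6b was lower in CD8 than in CD4 T cells (80.65 against 140.4 CPM, log2 ratio -0.8, interval -0.947 to -0.651) in 3 of 4 sets. It was the 1 member called lower, beside 15.1% of 9075 genes, and 0 members were called higher, beside 7.83%. The median of all genes in this comparison was itself -0.123. Serpinb6a was lower in CD8 than in CD4 T cells in 4 of 4 sets at day 19, at 51.4 against 69.27 CPM (log2 ratio -0.43, interval -0.633 to -0.224). Serpinb9 and Serpina3g differed by log2 ratios of -0.216 and 0.0217 at day 19.

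Shares of cells with a UMI were taken after each cell was thinned to 5000 UMIs, so that depth did not differ. Serpinb6b was detected in 33.5% of CD8 T cells at day 13 (exact binomial 95% interval 31.7 to 35.4) and in 25.3% at day 19 (23.0 to 27.6), against 43.0% and 37.5% without thinning. Serpina3g was detected in 29.8% (28.1 to 31.6) and 38.2% (35.6 to 40.7), and Serpinb9 in 25.0% (23.4 to 26.7) and 18.7% (16.7 to 20.8). Serpinb6a was found in 15.6% and 18.7%, and Serpina3f in 5.78% and 9.33%. In CD8 T cells the shares thus had the same order of days as the CPM. Among barcodes outside the contig tables with at least 10 UMIs of the C1q genes, which mark macrophages, Serpinb6b was detected in 2.2% of 91 at day 13 (median 7344 gene UMIs) and 2.33% of 43 at day 19 (7733). Serpina3g was detected there in 6.59% and 18.6%, while its level was 76.75 CPM (62 UMIs) at day 13 and 39.81 CPM (16 UMIs) at day 19, so that share and level had opposite orders of days. In barcodes with 10 to 100 gene UMIs, which hold mostly free RNA, the members' levels were close to those of the T cells: the CD8 level was 78.8% to 166% of the free level over members and days, and the CD4 level 104% to 189%. CD8 T cells had Serpina3f at 94.8% and 78.8% of its free level. Of genes of other cells, C1qb was at 1.77% and 1.82% of its free level in CD8 T cells, which were chosen for few macrophage UMIs, Cd74 at 16.6% and 7.63%, Fcer1g at 24.6% and 93% and Tyrobp at 11.5% and 12.4%. In CD4 T cells Cd74 was at 112% and 56.7% of its free level and Tyrobp at 56.4% and 33.9%.

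Within CD8 T cells, Serpinb9 followed Gzmb, the gene of the protease it inhibits, at both days. Cells were put in 4 classes by Gzmb UMIs after thinning: 0, 1 to 4, 5 to 14, and 15 or more, with 1166, 645, 461 and 374 cells at day 13 and 581, 368, 294 and 193 at day 19. Serpinb9 had 52.52, 83.23, 107.5 and 164.5 CPM in these classes at day 13, and 37.52, 70.01, 72.74 and 68.2 CPM at day 19. The day-13 levels were higher in each class than in the one before, while the 3 upper classes of day 19 had overlapping intervals. Cells with 15 or more UMIs exceeded those with 0 by a log2 ratio of 1.65 (interval 1.48 to 1.82) at day 13 and of 0.862 (interval 0.564 to 1.16) at day 19. At day 13 the upper class had 257.7, 141.6, 172.8 and 181.3 CPM in sets 1 to 4 against 40.78, 46.27, 52.66 and 71.33 CPM in the class with 0, so the classes did not overlap. At day 19 the sets had 59.3, 46.36, 75.35 and 119.1 CPM against 59.08, 33.81, 23.77 and 45.65 CPM. Set 1, with 9 cells in the upper class, showed nearly no difference.

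Serpinb6b followed Gzmb at day 13 and not at day 19. Its levels through the 4 classes were 95.31, 115.3, 176.7 and 246.3 CPM at day 13, a log2 ratio of the outer classes of 1.37 (interval 1.24 to 1.5) that was positive in 4 of 4 sets. At day 19 they were 73.98, 99, 85.14 and 58.34 CPM, with a log2 ratio of -0.343 (interval -0.623 to -0.0685) that was negative in 2 of 4 sets and reached -0.785 without set 2. The day-13 marker level of mature dendritic cells was lower in Gzmb-rich than in Gzmb-free cells (52.8 against 223 CPM), and without the marked cells the day-13 ratios were 1.59 for Serpinb6b and 1.95 for Serpinb9. Between the days the cells with 15 or more Gzmb UMIs differed more than those with 0: Serpinb6b had 58.34 against 246.3 CPM (log2 ratio -2.08, interval -2.34 to -1.83) and Serpinb9 68.2 against 164.5 CPM (-1.27, interval -1.52 to -1.03). In both genes all day-19 sets lay below all day-13 sets in these cells. In cells with no Gzmb UMI the ratios of days were -0.366 for Serpinb6b and -0.485 for Serpinb9. The mature dendritic markers also differed between the days in these cells (223 and 24.5 CPM with no Gzmb UMI, 52.8 and 1.58 CPM with 15 or more). Without the marked cells the ratios of days were -2 for Serpinb6b and -1.16 for Serpinb9 in Gzmb-rich cells, and -0.167 and -0.126 in those with no Gzmb UMI. The median of all genes between the days was -0.111 in the Gzmb-rich cells, and whether the ratio of days differed between Gzmb classes was not tested.

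Serpinb6a, Serpina3f and Serpina3g were also higher in Gzmb-rich cells. Serpinb6a had 36.16, 49.13, 53.65 and 53.6 CPM at day 13 and 32.37, 55.4, 64.75 and 67.81 CPM at day 19, with log2 ratios of the outer classes of 0.568 and 1.07. The day-13 ratio was just within 1.5-fold, passed it without set 1 (0.595), set 2 (0.819) or set 4 (0.599), and was 0.266 without set 3. Without the cells marked by mature dendritic genes it was 0.694. Serpina3f had 8.806, 11.99, 18.1 and 21.69 CPM at day 13 and 15.12, 27.58, 31.96 and 33.9 CPM at day 19, with ratios of 1.3 and 1.17. Serpina3g had 95.31, 100.8, 153.5 and 161 CPM at day 13 and 118.4, 198.5, 211.3 and 218.4 CPM at day 19, with ratios of 0.757 and 0.883. Its day-13 ratio rested on set 2, without which it was 0.345. In set 1 of day 13 Serpina3f (5.603 against 9.594 CPM) and Serpina3g (67.23 against 109.5 CPM) went the other way. In all, 4 of 5 members were called higher at day 13, beside 13.2% of 8181 genes, and 4 at day 19, beside 9.05% of 6906 genes. At both days 0 were called lower, beside 10.9% and 9.48% of genes.

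**Figure D2:**
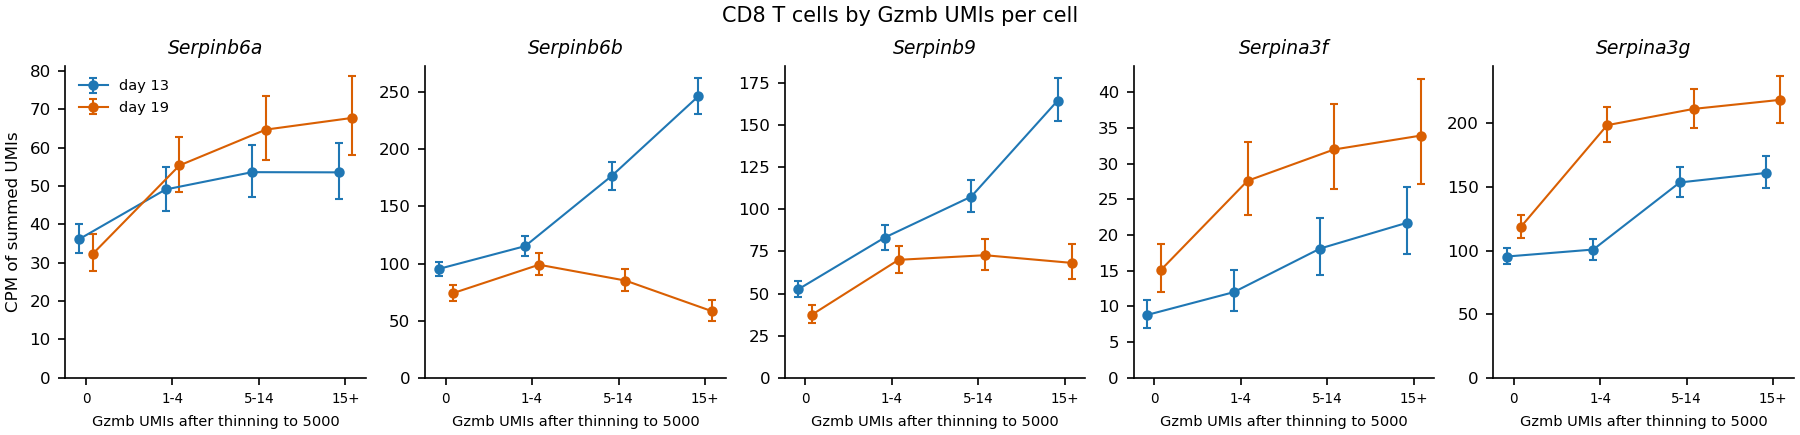
Level of each serpin in CD8 T cells (CPM of summed UMIs, vertical axis from 0) by Gzmb UMIs per cell after thinning to 5000 UMIs, at day 13 (blue) and day 19 (orange), with exact 95% Poisson intervals for counting error as bars. Serpinb6b reaches 246.3 CPM in the upper class at day 13 and 58.34 CPM at day 19, while Serpina3g is higher at day 19 in every class.

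Other genes of the granule and of the interferon-gamma response were compared between the same outer Gzmb classes. Of the granule list, 9 of 19 genes were higher and 3 lower at day 13, and 11 of 18 were higher and 1 lower at day 19, beside the 13.2% and 10.9% of all genes at day 13 and the 9.05% and 9.48% at day 19; Gzmb itself set the classes. Gzma had 2279 against 34.08 CPM at day 13 and 1765 against 39.3 CPM at day 19. Gzmc had 48.86 against 1.761 CPM at day 13 and 2865 against 1.956 CPM at day 19. Of the 12 interferon-gamma response genes, 8 were called higher in Gzmb-rich cells at day 13 and none lower, and at day 19 none was called higher and 5 lower, beside the same shares of all genes. Whether the days differ was not tested. Gbp3, a GTPase of this response, had 109.9 against 43.61 CPM at day 13 and 31.14 against 27.92 CPM at day 19, and Irf1 had 377.7 against 447.5 CPM and 130.1 against 372.7 CPM. Of the 8 death inhibitors, 3 were called higher and 2 lower at day 13, and 2 higher and 1 lower at day 19. Among them Bcl2 was lower in Gzmb-rich cells at day 13 (125.6 against 269.4 CPM), and Bcl2a1d was higher at both days (67.06 against 35.53 and 55.19 against 30.41 CPM).

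Pdcd1, the gene of the receptor PD-1, was more often detected in Gzmb-rich cells: at day 13, 443 cells with 5 or more Gzmb UMIs were Pdcd1+ and 392 Pdcd1-, beside 220 and 946 of those with 0. The same classes were therefore compared within Pdcd1- and Pdcd1+ cells. Serpinb9 was higher with Gzmb in both at day 13, with log2 ratios of 1.36 and 0.975. At day 19 its ratio was 1.35 in Pdcd1- cells (85.3 against 33.57 CPM, 4 of 4 sets) and 0.396 in Pdcd1+ cells (62.09 against 47.18 CPM, 3 of 4 sets). Serpinb6b had ratios of 1.17 and 0.767 at day 13 and of 0.44 and -0.587 at day 19, the last within 1.5-fold, at -0.431, without the cells marked by mature dendritic genes. For Serpinb6a they were 0.603 and -0.213 at day 13 and 0.903 and 0.473 at day 19. Serpina3f had 0.989 and 0.766 (0.539 without the marked cells) at day 13 and 1.52 and 0.242 at day 19, the last higher in 2 of 4 sets. Serpina3g had 0.702 and 0.299 at day 13 and 0.995 and 0.197 at day 19, so in Pdcd1+ cells it was within 1.5-fold at both days. At day 13 the higher Serpinb6a of Gzmb-rich cells was thus seen in Pdcd1- cells and not in Pdcd1+ cells, a difference that was not tested.

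The granzymes Gzmc and Gzmf marked a class of 169 CD8 T cells with 5 or more of their UMIs at day 19, beside 1186 cells with 0. At day 13 only 9 such cells were found, too few for a ratio. Serpinb6a was higher in the class, at 76.42 against 42.98 CPM (log2 ratio 0.83, interval 0.584 to 1.07, higher in 3 of 4 sets). Serpinb6b was lower, at 48.67 against 86.28 CPM (log2 ratio -0.826, interval -1.11 to -0.554, lower in 4 of 4 sets), and came to -0.573 without set 2. These were the 1 member called higher and the 1 called lower, beside 6.46% and 13.6% of 8376 genes. Serpina3g (224 against 161 CPM, log2 ratio 0.477), Serpinb9 (71.19 against 55.09 CPM, 0.37) and Serpina3f (26.14 against 24.32 CPM, 0.104, and -0.0818 without the cells marked by mature dendritic genes) were within 1.5-fold. Serpinb9 passed it, at 0.7, without set 2 and came to 0.125 without set 4. Set 1 went the other way for Serpinb9, at 16.38 against 69.8 CPM.

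Serpinb6a had its steepest gradient over the states of exhaustion, the condition of T cells under lasting antigen contact in which PD-1 and then TIM-3, the product of Havcr2, appear. Cells negative for both genes, positive for Pdcd1 alone and positive for both numbered 1733, 738 and 145 at day 13 and 795, 408 and 200 at day 19, and the 30 and 33 cells with Havcr2 alone were left out. Serpinb6a had 25.63, 68.76 and 106.1 CPM in these states at day 13 and 24.24, 70.76 and 93.07 CPM at day 19. Double-positive cells exceeded double-negative cells by a log2 ratio of 2.05 (interval 1.8 to 2.3) at day 13 and of 1.94 (interval 1.66 to 2.22) at day 19. In sets 1 to 4 the double-positive cells had 80.14, 111.6, 70.56 and 146.2 CPM at day 13 against 24.7, 28.1, 21.62 and 29.78 CPM in double-negative cells. At day 19 they had 66.55, 70.53, 129.8 and 130.3 CPM against 39.72, 18.35, 29 and 23.57 CPM, so the states overlapped in no set at either day. Within a state the days had nearly equal levels of Serpinb6a, with log2 ratios of -0.0806, 0.0413 and -0.189.

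Serpina3g was also higher in the Pdcd1+ states, by more at day 19, a difference that was not tested. It had 90.95, 162.3 and 164.6 CPM at day 13 (log2 ratio of the outer states 0.856, interval 0.674 to 1.03) and 99.06, 243.5 and 282.4 CPM at day 19 (1.51, interval 1.36 to 1.66). At day 19 the ratio was positive in 4 of 4 sets. At day 13 set 4 went the other way, at 84.1 against 93.71 CPM, and without set 2 the ratio was 0.502. Between the days Serpina3g differed little in double-negative cells (log2 ratio 0.123) and by 0.585 and 0.778 in the Pdcd1+ states. Serpina3f had 8.957, 20.83 and 19.33 CPM at day 13 and 12.61, 37.1 and 41.41 CPM at day 19, with ratios of the outer states of 1.11 (0.441 with a minimum of 8000 gene UMIs) and 1.71. For Serpina3f too, set 4 of day 13 went the other way, at 4.005 against 11.26 CPM.

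Among the 3 states compared, Serpinb9 and Serpinb6b were highest in Pdcd1+ cells at day 13. They were not higher in double-positive than in double-negative cells at day 19. The 30 left-out cells of day 13 with Havcr2 alone had 169.6 CPM of Serpinb9 (interval 131.7 to 215). Serpinb9 had 68.63, 117 and 120.2 CPM at day 13 (log2 ratio of the outer states 0.808, interval 0.595 to 1.02) and 56.39, 64.47 and 57.97 CPM at day 19 (0.0397, interval -0.238 to 0.311, lower in 3 of 4 sets, and -0.186 without the cells marked by mature dendritic genes). Serpinb6b had 117.7, 183.8 and 152.1 CPM at day 13 (0.37, lower in 2 of 4 sets, and 1.01 without cycling cells) and 79.15, 96.5 and 61.52 CPM at day 19 (-0.364, lower in 4 of 4 sets, and -0.653 without set 2). The ratios of days within the 3 states were -0.283, -0.859 and -1.05 for Serpinb9 and -0.572, -0.93 and -1.31 for Serpinb6b. The mature dendritic markers had the same order of days in these states, at 137, 222 and 216 CPM at day 13 and 47.4, 51.5 and 108 CPM at day 19. Without the marked cells the ratios were -0.214, -0.657 and -1.17 for Serpinb9 and -0.486, -0.854 and -0.982 for Serpinb6b. In double-positive cells the median of all genes between the days was -0.114. Over the outer states 4 members were called higher at day 13, beside 15.3% of 8556 genes, and 3 at day 19, beside 11.3% of 7529. At both days 0 were called lower, beside 10.2% and 10.3%, and the median of all genes was 0.125 at day 13.

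When the Pdcd1+ Havcr2- cells were split by Tcf7 or Slamf6, genes of the progenitor state of exhaustion, Serpinb6b was higher in the cells with either gene at day 19. This split was added after the data were seen. Serpinb6b had 223.1 CPM in the 96 cells with a UMI of either gene and 59.87 CPM in the 312 cells with neither, a log2 ratio of 1.9 (interval 1.63 to 2.16). In sets 1 to 4 the values were 297.6, 158.6, 304.2 and 144.6 CPM against 80.16, 52.24, 97.64 and 46 CPM, with no overlap. At day 13 the same split gave 192.3 CPM in 375 cells and 176.7 CPM in 363 cells, a log2 ratio of 0.122. Serpinb6a (42.45 against 78.95 CPM, log2 ratio -0.895, 4 of 4 sets), Serpina3f (20.77 against 41.83 CPM, -1.01, 3 of 4 sets) and Serpina3g (139.1 against 273.7 CPM, -0.977, 3 of 4 sets) had the opposite order at day 19. For Serpina3g, set 3 had 209.8 against 175.3 CPM. For Serpina3f, set 4 had 61.96 against 55.2 CPM, and the ratio was -2.08 without it. At day 19, 1 member was called higher and 3 lower, beside 8.89% and 8.98% of 5501 genes, and at day 13, 0 higher and 1, Serpinb6a (53.16 against 81.83 CPM, -0.622, and -0.45 without set 3), lower, beside 3.68% and 6.36% of 6712. Within the Pdcd1+ Havcr2- cells, those with Tcf7 or Slamf6 thus had 192.3 and 223.1 CPM of Serpinb6b at the 2 days, and those with neither 176.7 and 59.87 CPM. The mature dendritic markers summed to 161 against 19.9 CPM in this split at day 19, and without the marked cells the ratio of Serpinb6b was 1.88. Serpinb9 had 83.09 against 59.08 CPM in this split at day 19 (log2 ratio 0.492, higher in 3 of 4 sets, with 0.802 without set 4 and -0.156 without cycling cells).

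**Figure D3:**
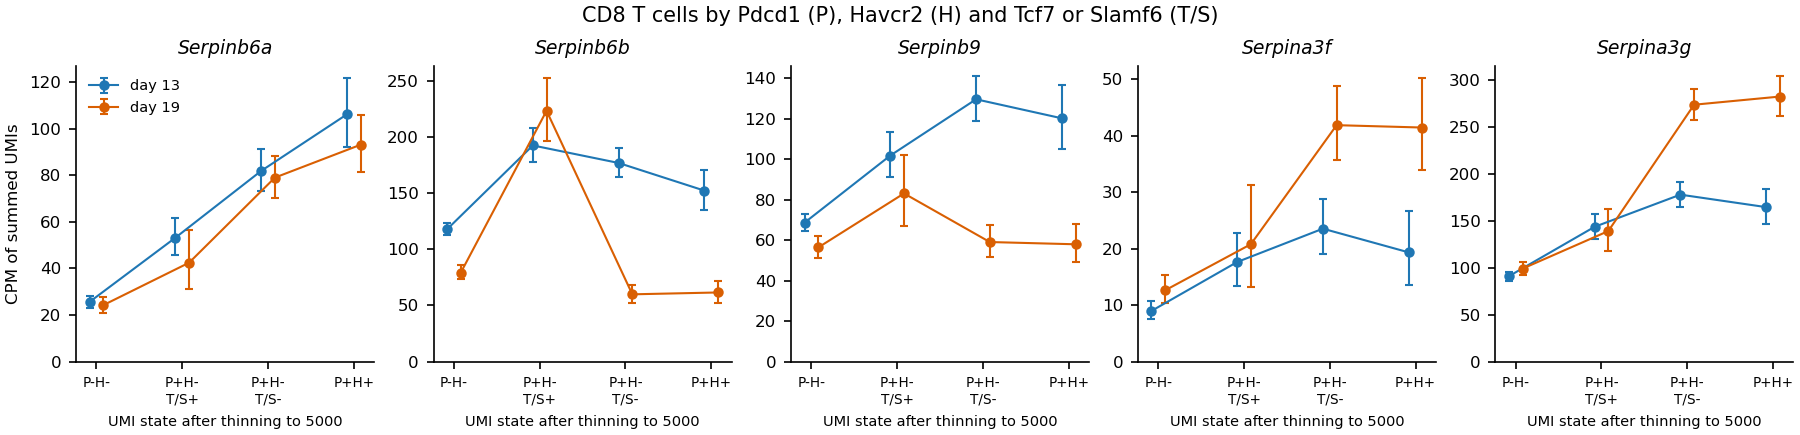
Level of each serpin in CD8 T cells (CPM of summed UMIs, vertical axis from 0) in 4 states defined by UMIs of Pdcd1 (P), Havcr2 (H) and Tcf7 or Slamf6 (T/S) after thinning, at day 13 (blue) and day 19 (orange), with exact 95% Poisson intervals as bars. Serpinb6a has overlapping intervals of the days in each state, and Serpinb6b at day 19 has 223.1 CPM in Pdcd1+ Havcr2- cells with Tcf7 or Slamf6 and 59.87 CPM in those with neither.

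Proliferating cells were set apart by their cell cycle genes. Serpinb6a was higher in cycling than in other CD8 T cells by log2 ratios of 0.604 at day 13 and 0.625 at day 19, and Serpinb9 by 0.452 and 0.417, each in 4 of 4 sets. Serpina3g differed by -0.0137 (0.0435 without the cells marked by mature dendritic genes) and 0.253. Without cycling cells the day-19 ratio of Serpinb9 over the outer states was 0.561, and in the Gzmc and Gzmf comparison Serpinb6a had 1.43, Serpina3g 0.896, Serpina3f 0.846 and Serpinb9 0.657.

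Clone size was counted within a set over cells with 1 TRA and 1 TRB chain, and CD8 T cells of clones of 3 or more cells are called expanded. Serpinb6a, Serpina3f and Serpina3g were higher in expanded cells at both days. Serpinb6a had 91.95 against 27.52 CPM in single cells at day 13 (log2 ratio 1.74, interval 1.53 to 1.95) and 91.49 against 29.57 CPM at day 19 (1.63, interval 1.36 to 1.9). It was higher in 4 of 4 sets at each day, but set 1 of day 19 showed nearly no difference (46.82 against 46.75 CPM). The days were nearly equal within expanded cells (log2 ratio -0.00737) and within single cells (0.104). Serpina3g had 187.9 against 98.3 CPM at day 13 (0.935, 3 of 4 sets) and 280.1 against 114.8 CPM at day 19 (1.29, 4 of 4 sets). Serpina3f had 25.19 against 8.686 CPM (1.54) and 42.28 against 15.23 CPM (1.47). These 3 members were called higher at each day, beside 11.6% of 8612 genes and 11.0% of 7373, and 0 were called lower, beside 6.78% and 9.51%. The median of all genes was 0.12 at day 13.

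Over all CD8 T cells, Serpinb6b and Serpinb9 were within 1.5-fold between expanded and single cells. Serpinb9 had log2 ratios of 0.223 and 0.251, and without cycling cells the day-19 ratio was 0.981, past 1.5-fold. Serpinb6b had ratios of -0.12 and -0.488, the latter at 71.01 against 99.61 CPM, lower in 4 of 4 sets, past 1.5-fold, at -0.809, without set 2, at -0.642 without the cells marked by mature dendritic genes, and 0.0257 with every cell thinned to the same depth. Expanded cells were more often Pdcd1+, with 319 of 445 at day 13 and 200 of 251 at day 19 beside 296 of 1381 and 139 of 647 single cells. Within Pdcd1- and Pdcd1+ cells the expanded cells still had more Serpinb6a, with log2 ratios of 1.58 and 0.995 at day 13 and of 1.81 and 0.811 at day 19, in 4 of 4 sets each at day 13 and in 3 of 4 at day 19. For Serpina3g these ratios were 0.988 and 0.521 at day 13 (the latter past 1.5-fold, at 0.612, without the marked cells) and 1.35 and 0.504 at day 19. For Serpinb6b they were -0.367 and -0.506 at day 13 and -0.233 and -1.09 at day 19. In Pdcd1+ cells Serpinb6b was lower in 4 of 4 sets at each day. Without the marked cells its day-19 ratios were -0.621 and -1.27, both past 1.5-fold.

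Clones differed widely among themselves in Serpina3g. The 10 CD8 clones of 10 or more cells at day 13 had 11 to 30 cells, and the 5 at day 19 had 10 to 57. Most of the day-13 clones came from set 2 and none from set 1, while the level of single cells was taken over all sets. A single clone held 30 of the 55 expanded cells in set 4 of day 13, and another 38 of the 53 in set 3 of day 19. Their Serpina3g ran from 28.66 to 527.2 CPM at day 13 (median 261.6, 7 of 10 above single cells) and from 90.25 to 531.7 CPM at day 19 (median 409, 4 of 5 above). Serpinb6a ran from 25.28 to 166.3 CPM (9 of 10 above single cells) and from 58.23 to 233.7 CPM (5 of 5 above). One day-13 clone of 30 cells had 155.6 CPM of Serpinb6a and 39.62 CPM of Serpina3g, and one of 22 cells had 154.1 and 509.3 CPM, so large clones rich in Serpinb6a could be rich or poor in Serpina3g. Serpinb6b was above the single cells in 4 of 10 clones at day 13 and in 0 of 5 at day 19, where it ran from 41.73 to 70.97 CPM. Serpinb9 was above in 7 of 10 and 3 of 5, and Serpina3f in 6 of 10 and 4 of 5.

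**Figure D4:**
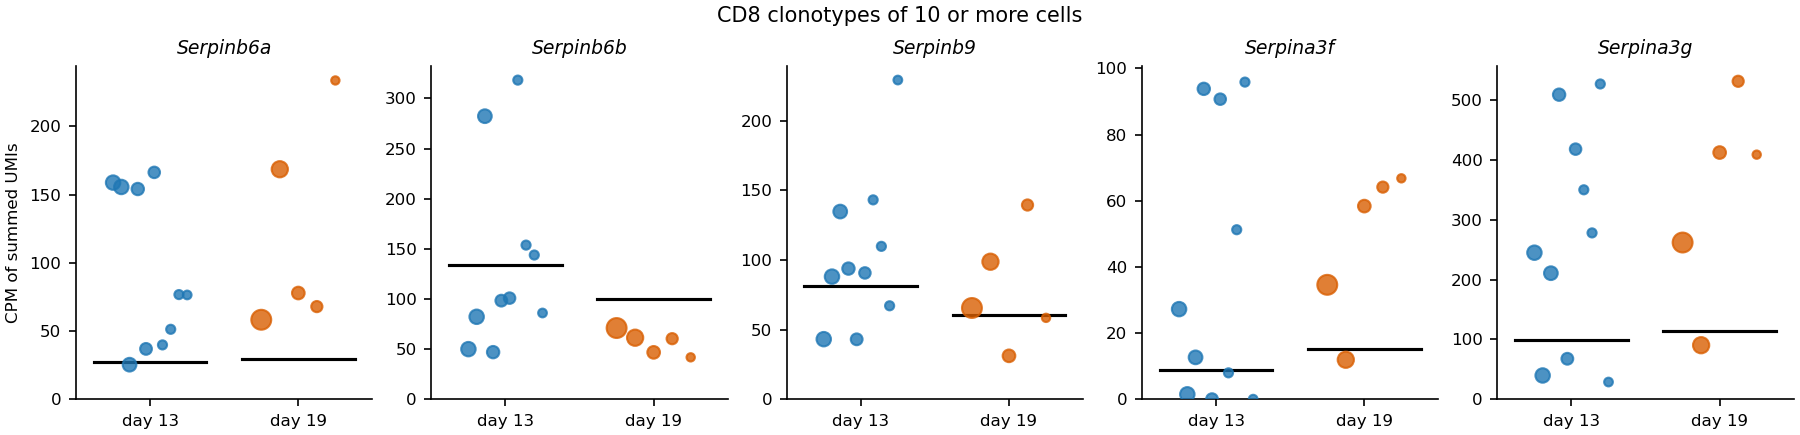
Level of each serpin (CPM of summed UMIs, vertical axis from 0) in the CD8 clones of 10 or more cells at day 13 (blue, 10 clones) and day 19 (orange, 5 clones), with clones in order of size from left to right, point area proportional to the number of cells, and the level of single cells as a black line. Serpinb6a lies above the line in 9 of 10 and 5 of 5 clones, and Serpinb6b lies below it in 5 of 5 day-19 clones.

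In CD4 T cells, Serpinb6b and Serpina3g had opposite patterns over Foxp3, the transcription factor of regulatory T cells. This comparison was also added after the data were seen, with 128 Foxp3+ and 371 Foxp3- cells at day 13 and 117 and 260 at day 19. Serpinb6b had 72.9 against 192.1 CPM at day 13 (log2 ratio -1.4, interval -1.74 to -1.07, and -2.09 without set 4) and 80.16 against 173.4 CPM at day 19 (-1.11, interval -1.43 to -0.804), lower in 4 of 4 sets each. Serpina3g had 176 against 87.19 CPM at day 13 (1.01, interval 0.749 to 1.28) and 295.9 against 106.9 CPM at day 19 (1.47, interval 1.24 to 1.7), higher in 4 of 4 sets each. Serpinb9 went with Serpinb6b, at 61.17 against 107 CPM (-0.807) and 49.45 against 78.91 CPM (-0.674), but the day-19 ratio was 0.12 without set 2 and -1.29 without set 3. Serpina3f had ratios of 0.786 and 1.6. Without the cells marked by mature dendritic genes, whose markers summed to 499 CPM in Foxp3+ and 429 CPM in Foxp3- cells at day 13, the day-13 ratios were -2.6 for Serpinb6b and -0.0527 for Serpina3f. Serpinb6b of Foxp3+ cells then had 24.76 CPM at day 13 and 76.87 CPM at day 19 (log2 ratio 1.63, beside 0.137 with all cells). Serpinb6a differed in sign between the days, with 50.28 against 32.01 CPM at day 13 (0.651, and 0.454 without set 2 or 0.365 without set 3) and 55.44 against 76.86 CPM at day 19 (-0.471, with -0.739 without set 3 and 0.342 without set 2), and the sets split evenly at both days.

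At day 13, 3 members were called higher and 2 lower in Foxp3+ cells, beside 5.12% and 5.76% of 5489 genes, and at day 19, 2 were called higher and 2 lower, beside 7.9% and 5.88% of 4985. Gzmb was itself higher in Foxp3+ cells at day 19, at 1447 against 286.5 CPM, and 7 of 12 interferon-gamma response genes were higher there. Between the days, Serpinb6a of Foxp3- cells had 76.86 against 32.01 CPM (log2 ratio 1.26, interval 0.911 to 1.62), with overlapping sets: set 1 of day 19, with 7 cells, had 16.81 CPM, below the 23.53 to 41.37 CPM of the day-13 sets, and sets 2 to 4 had 62.37 to 85.41 CPM, above them, while in Foxp3+ cells the ratio was 0.141 (interval -0.37 to 0.657). Whether these 2 ratios differ was not tested. Within Foxp3- cells, Serpinb6b had 250.9 CPM with Pdcd1 and 150.4 CPM without it at day 13, with set 3 far apart (382.4 against 112.4 CPM), sets 1 and 4 closer (144.9 against 140.6 and 210.3 against 152.5 CPM) and set 2 in the opposite order (169.8 against 184.7 CPM). At day 19 it had 198.3 against 137.9 CPM, a log2 ratio of 0.524 that was 0.861 without the marked cells, with set 4 in the opposite order (224.2 against 251.5 CPM).

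In single CD8 T cells the Serpina3 pair was detected together more often than the product of the shares. A UMI of both Serpina3f and Serpina3g was found in 124 of 2646 cells at day 13 and in 110 of 1436 at day 19, which is 2.72 and 2.15 times the product of the 2 shares. Serpinb6b and Serpinb9 were found together in 349 and 105 cells, 1.57 and 1.54 times the product. The other 8 pairs had 0.974 to 1.38 times the product. Pairs were not counted again without the cells marked by mature dendritic genes. The part of that RNA, and of reads shared by near-identical copies, in cells with both genes was not tested. Over the 16 sums of 8 sets and 2 classes, which share libraries, the highest correlation between members was that of Serpinb6b and Serpinb9 (Pearson r 0.549 on log2 of CPM plus 1). That of Serpina3f and Serpina3g was 0.306. Among 5621 genes with a mean of at least 20 CPM, the most alike over these sums were Ehd1 for Serpinb6a (r 0.884), Atp1b3 for Serpinb6b (0.843), Tbc1d1 for Serpinb9 (0.839), Ewsr1 for Serpina3f (0.844) and Bub3 for Serpina3g (0.907).

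Outside the contig tables, levels were taken only in marker groups of at least 20 barcodes. Smaller groups, among them natural killer (NK) cells with 13 and 18 barcodes, had none. Of the groups with levels, Serpinb6b and Serpinb9 were highest in barcodes marked by genes of mature dendritic cells, the migratory antigen-presenting cells. The 90 such barcodes at day 13, with at least 5 UMIs of Fscn1, Ccl22 and Cacnb3, had 825.8 CPM of Serpinb6b and 709.6 CPM of Serpinb9, and the 24 at day 19 had 756.6 and 725.6 CPM. Barcodes marked by monocyte genes (313 and 72) had 0.3362 and 2.835 CPM of Serpinb6b, the former from 1 UMI. Serpina3g was found in every group with levels, with 84.06 and 172.6 CPM in the mature dendritic, 84.38 and 112 CPM in the monocyte and 132.3 and 150.9 CPM in the type 2 dendritic group. The 28 gamma-delta T cell barcodes of day 13 had 176.6 CPM of Serpinb6b and 126.1 CPM of Serpinb9, with 339 CPM of the mature dendritic markers, whose part in these values was not tested.

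**Figure D5:**
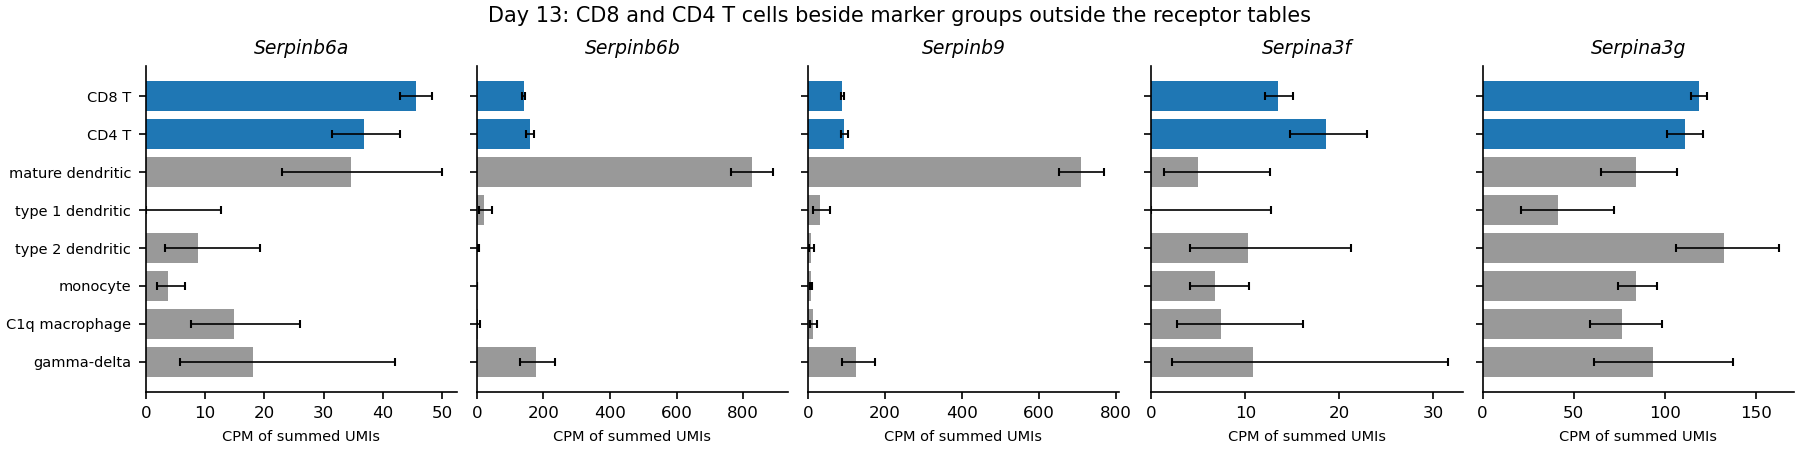
Level of each serpin at day 13 (CPM of summed UMIs, horizontal axis from 0) in CD8 and CD4 T cells (blue) and in barcodes outside the contig tables grouped by marker UMIs (grey), with exact 95% Poisson intervals as bars. Serpinb6b and Serpinb9 reach 825.8 and 709.6 CPM in the mature dendritic group, and Serpina3g is measured in all groups.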

How the data were processed

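Gene expression of the sorted T cells was read from 2 matrices (736611 and 735849 barcodes, 32285 genes, 144565182 and 81224453 gene UMIs), which hold UMI counts deposited by the authors. The submitters' processing notes name bcl2fastq 2.20, Cell Ranger 4.0.0, STAR 2.7.5c, mm10, R 4.1.2 and Seurat. Contig tables per day gave the T cell barcodes, sets and clonotypes. 13 contig barcodes occurred in both days, and 0 in more than 1 table. Of the contig barcodes, 3727 and 1080 were under the UMI minimum and 857 and 1056 over the macrophage limit. Doublets were not called, and 8.64% and 7.09% of the cells had 2 or more TRB chains. The antibody counts were not used. Sets and classes held 113144 to 8823773 gene UMIs.

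Counts were summed per group (Python 3.11.15, numpy 2.4.6, pandas 2.3.3, scipy 1.17.1). Ratios carry exact conditional Poisson intervals at 95% confidence, shares carry exact Clopper-Pearson intervals, and neither covers variation between mice. Classes by Gzmb, Gzmc plus Gzmf, Pdcd1, Havcr2, Tcf7, Slamf6 and Foxp3 were taken after thinning to 5000 UMIs, and levels from all UMIs. Calculation of the intervals was tested on simulated counts. The members and lists were chosen with earlier results of these data known. From each list all genes were counted, and genes were named from the 4 highest and 4 lowest ratios. Alternatives were other UMI, mitochondrial and macrophage limits, at least 2 UMIs per class, no cycling cells, no highest-UMI barcodes, other scalings, equal weight per set, unthinned classes, clonotypes by TRB alone and each set left out. Leaving out the largest clonotypes or the barcodes with a mature dendritic marker, and the Foxp3 and Tcf7 comparisons, were added after seeing the data.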

Additional observations from a re-analysis of the deposited data

Results flagged for a closer look

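Serpina3g in CD8 T cells of day 19 had 1 set far from the others: set 3 had 138.3 CPM, and the other 3 sets had 183.2 to 190.9 CPM. Of 20 groups of 4 sets examined, for 5 genes, 2 classes and 2 days, this was the 1 in which the gap of an end value over the whole range passed Dixon's 95% critical value for 4 values, and chance flags about 1 group in 20. Without set 3 the log2 ratio of days for Serpina3g was 0.649 in place of 0.573.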

How the results depend on the processing

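Of 1335 recomputed ratios of single genes, 1106 stayed within the counting interval of the reported value, 224 moved beyond it and 5 changed the sign of a called value, all 5 in the Foxp3 comparison. These were Serpinb6a at day 13 with a UMI minimum of 8000 (-0.224), Serpina3f at day 13 with at least 2 UMIs per class (-0.414) or no mature dendritic marker UMI (-0.0527), and Serpinb9 at day 19 without cycling cells (0.0863) or without set 2 (0.12; without set 3 it was -1.29). Of 466 recomputed counts of called members, which leave out the Tcf7 or Slamf6 comparison, 75 differed from the reported count. Of these, 45 differed by more than 1.5 times or to or from 0, and these 45 follow. Between the days in CD8 T cells the count higher was 2 with a UMI minimum of 8000, at least 2 UMIs per class, no highest-UMI barcodes, the median of all genes at 0, granzyme, ribosomal and mitochondrial genes left out of the total, or equal weight per set. The count lower was 1 with a minimum of 2000, the last 3 of these, or no mature dendritic marker UMI. In CD4 T cells the count higher was 1 with no macrophage UMI or no cycling cells, and the count lower 1 with no cycling cells. Between CD8 and CD4 T cells the count lower was 1 at day 13 with no macrophage UMI, and 2 at day 19 with a minimum of 2000, no macrophage UMI, no highest-UMI barcodes or no cycling cells. Over Gzmb at day 19, 1 was lower with a minimum of 8000 or equal weight. Over Gzmc and Gzmf the count higher was 3 without the highest-UMI barcodes, 4 without cycling cells and 2 with thinned UMIs. Over clone size at day 19, 1 was lower with a minimum of 8000, the smaller total, equal weight, TRB alone or no mature dendritic marker UMI. Over Foxp3, 1 was lower with no macrophage UMI at both days, and at day 19 also with no cycling cells or equal weight. With a single set omitted at a time there were 1 to 2 higher and 1 to 2 lower between the days in CD8 T cells, and 0 to 1 lower in CD4 T cells, between CD8 and CD4 T cells at day 13, over Gzmb, Gzmc and Gzmf, the Pdcd1 and Havcr2 states and clone size at day 19. There were 1 to 2 higher over Gzmc and Gzmf and 1 to 3 lower over Foxp3 at day 19. Calls also changed in the Tcf7 or Slamf6 comparison. At day 13 Serpinb6a was within 1.5-fold with the median of all genes at 0 (-0.576), the smaller total (-0.554) or no largest clonotypes (-0.574). Serpina3f was called lower without the highest-UMI barcodes (-0.694), without cycling cells (-0.835) or with thinned UMIs (-0.784), and Serpina3g without cycling cells (-0.665). At day 19 Serpinb9 was called higher with a minimum of 8000 (0.628). The cause of these changes was not tested. Depth limits the smallest groups most: set 1 of day 19 holds 12 CD4 T cells with 113144 gene UMIs. No paired analysis was possible because each day is 1 capture, and no result comes from a test. Within a day both groups were also compared inside each set. The number of sets in each direction is given for part of these comparisons.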
